A study of Mus musculus with 51 samples.

Results

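Tight junction, keratin and *Esrp* genes were followed during the differentiation of mouse embryonic stem (ES) cells into cardiac mesoderm. The 10 genes were taken by symbol, out of 24538 genes in each expression table, and all 10 were found in every table. They are the claudins *Cldn3*, *Cldn4*, *Cldn6* and *Cldn7* and occludin (*Ocln*), the simple epithelial keratins *Krt8*, *Krt18* and *Krt19*, and the splicing regulators *Esrp1* and *Esrp2*. The study induced mesoderm with Bmp4 (20 ng/ml) and asked what *Smad4*, *Eomes* and *T* contribute. RNA-seq covered 18 of its 51 samples, and the ChIP-seq and ATAC-seq samples were not analysed here. F1G4 WT cells were taken as ES aggregates and on days 1, 2 and 3 of differentiation, and the labels give 2 samples for every stage. From F1G4 the study derived lines without *Eomes*, without *T* or without both (dKO), which were collected on days 2 and 3. A separate line with conditional *Smad4* alleles, of 129S/SvEv x C57BL/6 background, gave WT and *Smad4* KO cells for days 1 and 2. The labels give 1 sample for each of these conditions, whereas the study describes its RNA-seq values as means over replicates. All differentiating cells received Bmp4 and were freed of feeder fibroblasts beforehand.

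Each KO line was grown from a picked clone. In *Eomes* KO and *T* KO cells a Cas9 nickase with pairs of guide RNAs had cut out the promoter with exon 1 of the gene. The dKO line descends from *Eomes* KO cells. In *Smad4* KO cells Cre had excised the floxed exon 1. The comparisons of *Eomes* KO, *T* KO and dKO cells use the same WT libraries, so their values are given side by side and are not independent of each other.

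Claudins and occludin span the membrane at tight junctions, the apical seals between epithelial cells. Claudins set which ions pass the seal, and occludin, a MARVEL domain protein, is a further component of the strands. Keratin filaments form from a type II keratin, such as Krt8, paired with a type I keratin, such as Krt18 or Krt19, and Krt8 and Krt18 are the first keratins made in the embryo. Esrp1 and Esrp2 are RNA-binding proteins that promote the epithelial splice forms of many transcripts. At the primitive streak epiblast cells lose their epithelial organisation as they form mesoderm, and repressors of the Snail and Zeb families can bind E-boxes of the form CACCTG in epithelial genes.

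Expression was measured as FPKM, fragments scaled by transcript length and by the mapped fragments of the library, a value per length that allows levels of different genes to be compared. Each condition is represented by 1 pooled FPKM per gene. Spread between replicates, depth and counting error are therefore unknown, and none of the differences below has a replicate check or a test. Genes counted as examined where either group of a comparison exceeded FPKM 1, and as called higher or lower when the log2 ratio was above 1 or below −1, the rule of the study. The share of all examined genes called by the same rule is given as background. As a yardstick, both WT lines were also compared with each other on days 1 and 2. In bulk RNA fewer cells of a type and less RNA per cell cannot be told apart.

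Each condition had between 10416 and 11248 genes above FPKM 1. Targeted genes were checked first. The FPKM of *Eomes* on day 2 was 2.42 in *Eomes* KO cells beside 9.42 in WT, and on day 3 it was 0.276 beside 20.3. For *T* in *T* KO cells the day 2 values were 6.64 beside 44.8 in WT and the day 3 values 3.00 beside 323. The dKO cells were low for both genes (*Eomes* at most 1.24, *T* at most 2.77). Each single KO also differed in the other gene. In *Eomes* KO cells *T* stood at 22.3 beside 43.1 on day 2 (not called) and at 4.46 beside 334 on day 3. In *T* KO cells *Eomes* was higher on day 2 (24.7 beside 9.81) and lower on day 3 (4.83 beside 19.6). *Smad4* was not lower in *Smad4* KO cells (39.4 against 33.8 on day 1, 46.8 against 39.3 on day 2). The value covers the exons that remain, so it checks nothing here.

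Upstream sequences of *Krt8*, *Krt18* and *Cldn4* are shown. *Krt8* and *Krt18* had the most similar profiles of the 10 genes. *Cldn4* was the only tight junction gene whose WT value on day 1 was below that of ES cells. The sequences are the 250 bases before the RefSeq transcription start in GRCm38.p6, 5′ to 3′ on the strand of the gene. Capitals mark the letters CACCTG, searched on both strands (CAGGTG on the other), and in *Cldn4* also TGANTCA, the AP-1 site. *Krt8* is read from the minus strand of chr15:102004343-102004592, *Krt18* from the plus strand of chr15:102027966-102028215 and *Cldn4* from the minus strand of chr5:134946935-134947184.
Krt8: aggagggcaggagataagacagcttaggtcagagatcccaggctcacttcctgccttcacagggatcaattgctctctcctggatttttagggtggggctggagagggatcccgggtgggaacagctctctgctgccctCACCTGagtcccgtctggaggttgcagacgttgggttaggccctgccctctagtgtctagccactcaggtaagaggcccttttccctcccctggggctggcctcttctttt
Krt18: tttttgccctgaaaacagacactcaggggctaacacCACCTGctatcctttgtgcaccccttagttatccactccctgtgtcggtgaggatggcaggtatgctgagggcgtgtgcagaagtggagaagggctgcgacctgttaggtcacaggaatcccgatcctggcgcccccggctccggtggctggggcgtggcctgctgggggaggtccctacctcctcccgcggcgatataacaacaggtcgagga
Cldn4: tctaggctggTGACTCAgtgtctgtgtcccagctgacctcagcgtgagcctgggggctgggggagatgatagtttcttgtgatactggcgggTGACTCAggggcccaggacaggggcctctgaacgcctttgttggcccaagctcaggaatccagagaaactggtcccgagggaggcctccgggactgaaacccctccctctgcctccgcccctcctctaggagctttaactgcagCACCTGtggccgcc

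In the printed stretches the E-box began 111 bases before the start in *Krt8*, 214 bases in *Krt18* and 14 bases in *Cldn4*. RefSeq windows from 250 bases before to 50 bases after the start were at hand for 7 of the 10 genes (9 windows, with alternative starts for *Cldn7* and *Ocln*), but not for *Krt19*, *Esrp1* and *Esrp2*. CACCTG was found in 8 of these 9 windows and in all 7 genes, beside 20.2% of 32851 windows of mouse genes. The windows of *Ocln* overlap and share a match. G and C made up 52% to 68% of the letters in these 9 windows, beside a median of 52.7% over all windows. The background share was not matched for this. The AP-1 letters occurred only in *Cldn4*, 240 and 158 bases before the start, beside 7.81% of all windows. None of the 9 windows held the T-box letters AGGTGTNA (3.03% of all windows) or the Grainyhead-like letters AACCNGTT (2.09%). AGGTGTNA shares the letters AGGTG with the E-box on its other strand. These matches describe letters in a window and no binding.

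Between ES cells and day 3 of WT differentiation, all 5 tight junction genes and all 3 keratins rose, and neither *Esrp* gene was called. That is 8 of 10 genes called higher and none lower, beside 18.5% of the 11554 genes examined called higher and 12.6% called lower. The median log2 ratio of the 10 genes was 1.93, against −0.02 over all examined genes. On day 1 relative to ES cells 4 genes were called higher and none lower (background 7.7% higher and 5.84% lower), and on day 2 relative to ES cells 7 and none (background 14.2% and 9.08%). Between days 2 and 3, 5 genes were called higher and none lower (background 6.14% and 4.06%).

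The keratins made the widest moves. From ES cells through days 1, 2 and 3 *Krt18* (15:102028180-102032027, plus strand, mm10), the type I partner of Krt8, had FPKM values of 15.4, 80.7, 312 and 846. *Krt8* (15:101996698-102004482, minus strand), the type II keratin, went from 12.4 to 37.6, 233 and 619 over the same stages. *Krt19* (11:100140810-100148665, minus strand), a type I keratin without a tail domain, was at 2.21 in ES cells and 3.95 on day 1, then at 44.8 and 144. Thus *Krt8* and *Krt18* were called higher at each step relative to ES cells, whereas *Krt19* passed the threshold from day 2 on. Between ES cells and day 3 the log2 ratio was 5.64 for *Krt8*, 5.78 for *Krt18* and 6.02 for *Krt19*, or 49.8-, 54.9- and 64.9-fold. Of the examined genes 1.15% had a ratio above that of *Krt19*, genes listed at 0 in ES cells included. By FPKM *Krt18* ranked 73rd and *Krt8* 108th among all genes on day 3. *Krt8* and *Krt18* are neighbours on chromosome 15, 23697 bases apart, and are transcribed away from each other.

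**Figure D1:**
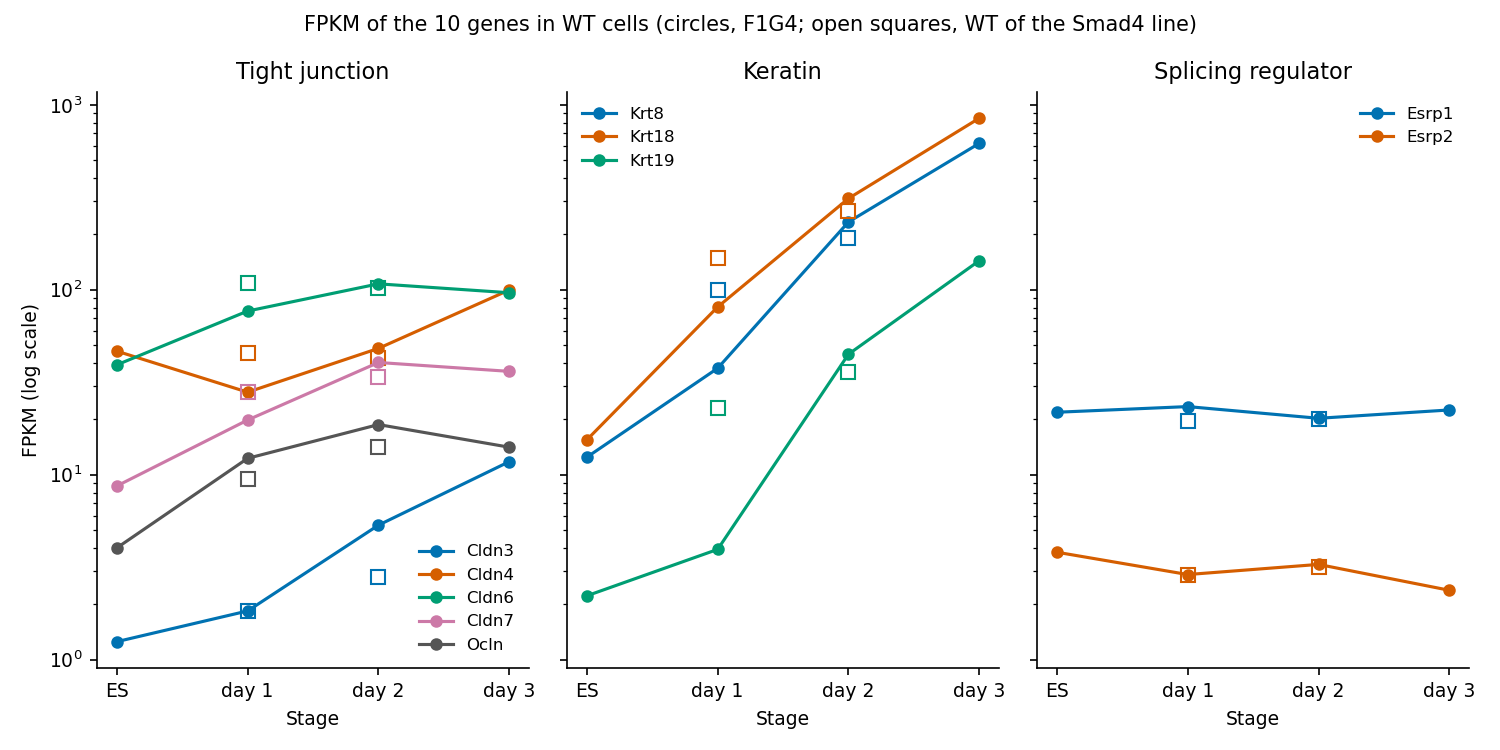
FPKM (log axis) of the tight junction genes (left), keratins (middle) and *Esrp* genes (right) in F1G4 WT cells by stage (circles joined by lines) and in the WT of the *Smad4* line (open squares, days 1 and 2), with 1 value per condition and no error bars. The 3 keratins climb at every step, to 144, 619 and 846 on day 3, while *Esrp1* stays between 20.2 and 23.3 in F1G4 cells and is at 19.4 and 20.0 in the *Smad4* line.

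Among the tight junction genes the timing differed. *Cldn7* (11:69964779-69967885, plus strand) had FPKM values of 8.69, 19.8, 40.4 and 36.2 over the 4 stages. *Ocln* (13:100496507-100552718, minus strand) went from 4.02 to 12.3, 18.7 and 14.1. Both were called higher from day 1 on (log2 1.18 and 1.61) and had their highest WT value on day 2. *Cldn6* (17:23679249-23682446, plus strand), a claudin of embryonic epithelia, stood at 39.3, 76.7, 108 and 96.3. It lay just under the threshold on day 1 (log2 0.97) and above it on day 2 (log2 1.45).

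*Cldn3* and *Cldn4*, barrier-forming claudins whose genes lie 39279 bases apart on chromosome 5, were the tight junction genes called higher between days 2 and 3 (log2 1.14 and 1.05). *Cldn3* (5:134986214-134987472, plus strand) was the lowest of the 4 claudins at every stage, at 1.25, 1.83, 5.34 and 11.8, and the antisense gene *Wbscr25* that overlaps it did not exceed 0.282 in any comparison. *Cldn4* (5:134945119-134946934, minus strand) had values of 46.6, 27.9, 48.2 and 99.7. It was the only tight junction gene with a value on day 1 below that of ES cells (log2 −0.74, not called). The other 3 tight junction genes had log2 ratios of day 3 to day 2 between the thresholds (*Cldn6* −0.16, *Cldn7* −0.16 and *Ocln* −0.41).

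Neither *Esrp* gene was called in any comparison of WT stages. *Esrp1* (4:11331933-11386783, minus strand) stood at 21.8, 23.3, 20.2 and 22.4 from ES cells to day 3. *Esrp2* (8:106130319-106136974, minus strand) stood at 3.81, 2.88, 3.27 and 2.37, and its log2 ratio of day 3 to ES cells was −0.68. *Esrp1* was 5.71 times the level of *Esrp2* in ES cells and 9.44 times on day 3.

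The make-up of both families was also read as shares of summed FPKM. Of 25 claudin genes, 5 to 7 stood above FPKM 1 in any of the 14 conditions. *Cldn3*, *Cldn4*, *Cldn6* and *Cldn7* held 81.7% to 91.3% of the claudin sum, and *Cldn12* was the leading other claudin at each condition. Within these 4, *Cldn4* held 48.6% and *Cldn6* 41.0% in ES cells. On day 1 *Cldn6* held 60.8% and *Cldn4* 22.1%, and on day 3 they stood at 39.5% and 40.9%. The lead therefore passed from *Cldn4* to *Cldn6* and the pair drew level again by day 3.

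The keratin family changed its leading genes. In ES cells *Krt8*, *Krt18* and *Krt19* held 33.7% of the FPKM of 55 keratin genes, and the type I keratins *Krt42* (33.6) and *Krt17* (19.6) stood above them. On day 1 the 3 genes held 94.0%, and in all later conditions 94.2% to 98.4%. *Krt42* fell to 1.79 on day 1 and 0.0701 on day 3, and *Krt17*, a keratin of skin appendages, to 1.68 on day 1 and 0.969 on day 3. From day 1 on the leading other keratin was *Krt7*, a type II keratin of simple epithelia.

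**Figure D2:**
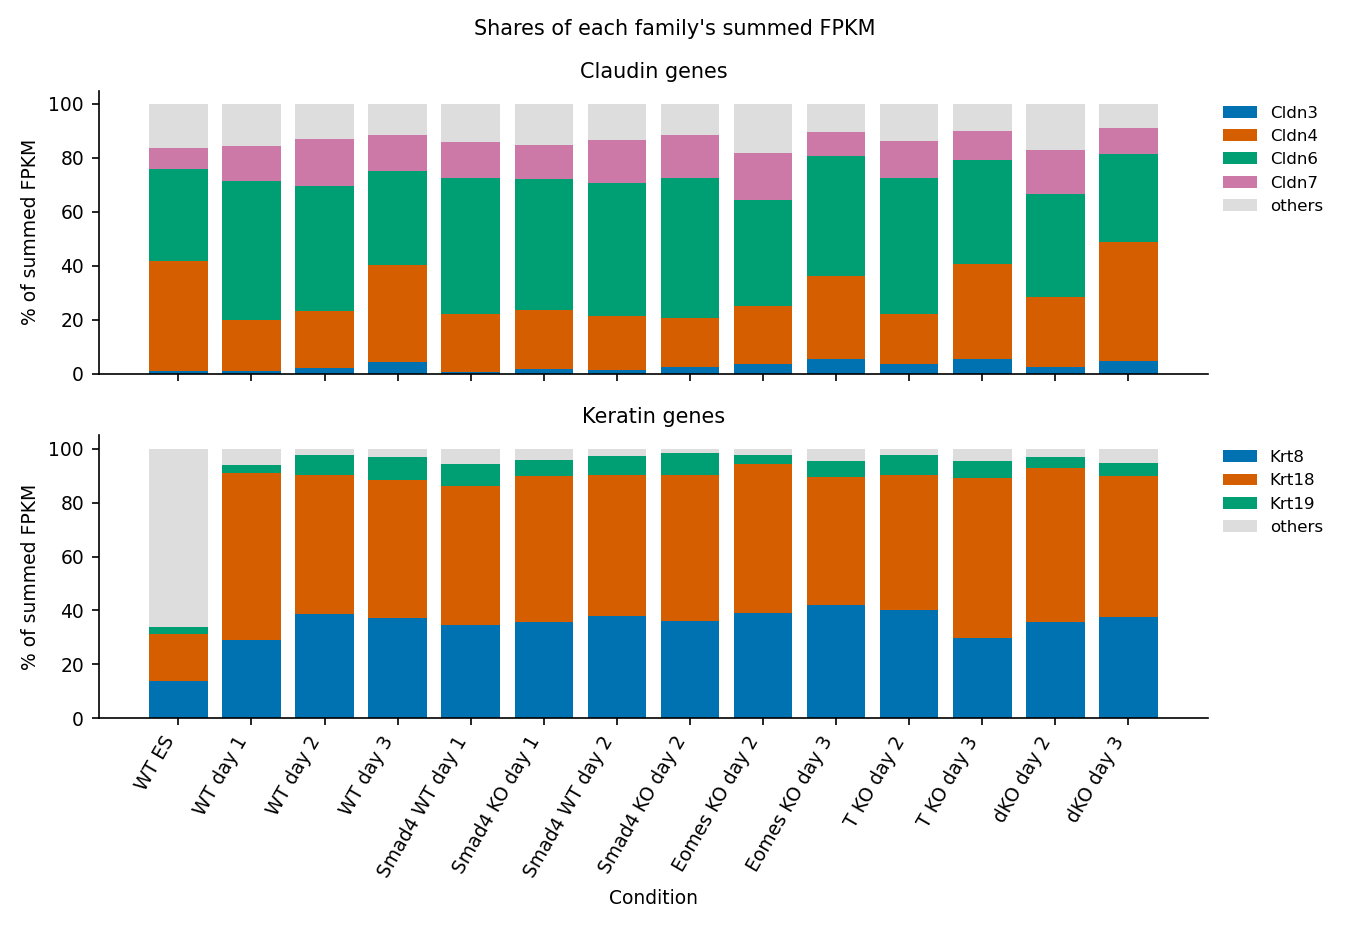
Shares (% of summed FPKM) of *Cldn3*, *Cldn4*, *Cldn6* and *Cldn7* among 25 claudin genes (top) and of *Krt8*, *Krt18* and *Krt19* among 55 keratin genes (bottom) in the 14 conditions, with all other genes of the family in grey. The 3 keratins hold 33.7% in ES cells and at least 94.0% elsewhere, and the 4 claudins hold at least 81.7% throughout.

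The WT cells of the *Smad4* line were set against F1G4 WT cells to see how far unmodified cells differ. On day 1, 2 of the 10 genes were called higher in the *Smad4* line and none lower (background 7.36% higher and 3.83% lower). After scaling to the same median gene, *Krt19* stood at 23.7 against 3.95 (log2 2.59) and *Krt8* at 103 against 37.6 (log2 1.45). *Krt18* was just inside the threshold at 154 against 80.7 (log2 0.93). On day 2 none was called (background 1.58% and 3.51%), although all 10 log2 ratios were below 0, from −0.93 for *Cldn3* to −0.0046 for *Esrp1*. The difference of the keratins between the WT lines on day 1 exceeded every KO difference of the same genes below.

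*Smad4* encodes the common partner of receptor-activated Smads. On day 1 none of the 10 genes was called in *Smad4* KO cells (background 2.36% higher and 2.41% lower). On day 2 1 gene was called higher and none lower (background 2.56% and 3.21%). It was *Cldn3*, with 6.26 in the KO beside 2.79 in its WT (log2 1.17). Its day 1 FPKM was 1.84 in WT and 3.65 in the KO (log2 0.98), just inside the threshold. Between the WT lines *Cldn3* stood on day 2 at 2.81 in the *Smad4* line, after scaling, and at 5.34 in F1G4. With a pseudocount of 1 added to FPKM the day 2 ratio of the KO was 0.94, and after rescaling to TPM (FPKM divided by its column sum) the day 1 ratio was 1.05.

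No keratin was called in *Smad4* KO cells. On day 2 *Krt8* stood at 120 beside 192 in WT (log2 −0.68), *Krt18* at 178 beside 265 (log2 −0.58) and *Krt19* at 27.6 beside 35.8 (log2 −0.38). The day 1 values were 91.4 beside 99.3 for *Krt8*, 139 beside 148 for *Krt18* and 14.9 beside 22.9 for *Krt19* (log2 −0.62). The other tight junction genes and the *Esrp* genes had log2 ratios between −0.21 and 0.49 on both days. Markers of other cell types moved with this comparison. On day 2 the summed FPKM of 12 trophoblast markers was 4.56 beside 16.9 in WT, with *Krt7* (3.28 beside 9.02) and *Hand1* called lower. That of 10 surface ectoderm markers was 37.1 beside 64.3, with *Krt14*, *Grhl3* and *Wnt6* called lower. Most of the surface ectoderm sum was *Perp* (35.7 beside 58.4), which was not called. Both sums moved in the direction of the keratins, but both lists themselves hold keratins, among them *Krt7* and *Krt14*. Of 8 neural markers *Pax6* and *Sox1* were called higher, and *Pax6*, a neural regulator, rose from 0.378 in WT to 10.4 in the KO on day 2. Their part in the values above was not tested.

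*Eomes*, a T-box factor of the primitive streak, was lost in *Eomes* KO and dKO cells. On day 2, 1 of the 10 genes was called lower and none higher in *Eomes* KO cells (background 3.35% higher and 4.17% lower). The same counts, 1 lower and none higher, were found in dKO cells on day 2 (background 3.48% and 4.5%). In both it was *Krt19*, with 11.3 in *Eomes* KO beside 44.4 in WT (log2 −1.98), and with 15.8 in dKO beside 44.3 (log2 −1.49). Of all examined genes, 99.3% in the *Eomes* KO comparison and 98.5% in the dKO comparison had a ratio above that of *Krt19*. In *T* KO cells *Krt19* stood at 37.4 against 46.2 in WT (log2 −0.30). Among the F1G4-derived lines the low values were those of *Eomes* KO cells and of the dKO line made from them. *Smad4* KO cells on day 2 were also low in *Eomes* (1.73 against 24.8), and there *Krt19* stood at 27.6 against 35.8 (log2 −0.38). The part of *Eomes* in these values was not tested.

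*Krt8* and *Krt18* had ratios of the same sign on day 2. *Krt8* stood at 129 against 230 in *Eomes* KO cells (log2 −0.84) and at 136 against 230 in dKO cells (log2 −0.76). *Krt18* stood at 182 against 309 (log2 −0.76) and at 217 against 308 (log2 −0.51). After rescaling to TPM *Krt8* passed the threshold in both lines (log2 −1.06 and −1.17). In that setting 1053 of 12357 examined genes were called lower in *Eomes* KO and 1869 of 12259 in dKO cells. Without rescaling these counts were 468 of 11226 and 504 of 11195. *Krt19* had the lowest ratio of the 3 keratins, and its FPKM was 0.0617 of that of *Krt18* in *Eomes* KO and 0.0729 in dKO cells on day 2, and 0.144 in WT cells. A ratio of genes of the same column does not depend on the scaling of the column. The neural gene *Sox1* moved with these values on day 2, at 7.17 in *Eomes* KO beside 0.200 in WT and at 5.17 in dKO cells, and its part was not tested.

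On day 3 none of the keratins was called in these lines. *Krt19* stood at 98.7 in *Eomes* KO and 150 in WT cells (log2 −0.60) and at 110 in dKO cells against 149 (log2 −0.44). *Krt8* stood at 713 against 645 and at 870 against 642, and *Krt18* at 807 against 882 and at 1209 against 878. The step from day 2 to day 3, on the scale of the time course, was 3.21-fold for *Krt19* in WT, 8.32-fold in *Eomes* KO, 3.19-fold in *T* KO and 6.59-fold in dKO cells. For *Krt8* it was 2.66-, 5.26-, 2.87- and 6.09-fold, and for *Krt18* 2.72-, 4.20-, 4.62- and 5.30-fold, in the same order.

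**Figure D3:**
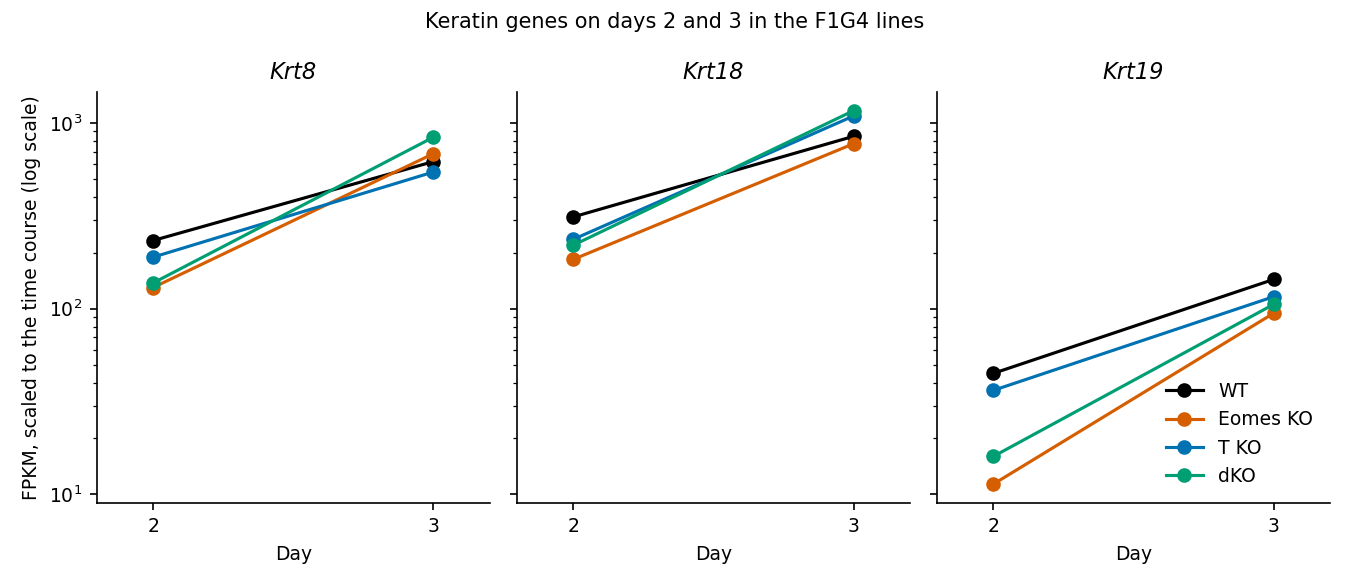
FPKM (log axis, scaled to the time course) of *Krt8*, *Krt18* and *Krt19* on days 2 and 3 in WT, *Eomes* KO, *T* KO and dKO cells, with 1 value per line and day. On day 2 *Krt19* lies at 11.4 in *Eomes* KO and 16.0 in dKO cells, below 36.3 in *T* KO and 44.8 in WT cells, and on day 3 all 4 lines lie between 94.4 and 144.

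Markers of other cell types that make keratins were read beside these values. The summed FPKM of 12 trophoblast markers ran from 2.50 in WT ES cells to 167 in dKO cells on day 3, with 0 to 6 of the 12 above FPKM 1. On day 2 it was 25.0 in WT, 14.4 in *Eomes* KO and 18.0 in dKO cells, and on day 3 82.2, 154 and 167. *Krt7* and *Hand1*, the latter also a cardiac progenitor gene in the study, held most of it on day 3 (*Krt7* 46.4 and *Hand1* 20.5 in WT cells). Relative to WT on day 3, 3 of 7 examined were called higher and 1 lower in both *Eomes* KO and dKO cells. The background was 7.39% higher and 9.01% lower in *Eomes* KO and 5.51% and 5.53% in dKO cells. The genes were *Tfap2a*, *Plac1* and *Hand1* against *Cdx2* in *Eomes* KO cells and *Krt7*, *Plac1* and *Esx1* against *Cdx2* in dKO cells. In *T* KO cells the day 3 sum was 125. There *Plac1* and *Ascl2* were called higher and *Cdx2* lower (0.498 against 7.35), 2 and 1 of 7 examined (background 2.12% and 3.92%). The placental gene *Plac1* stood at 1.55 in WT, 9.99 in *Eomes* KO and 8.63 in dKO cells, and *Cdx2* at 7.30, 0.439 and 1.96. Other genes of this list ranged widely. *Prl3d1* was listed at 0 in every condition, *Elf5* at 0 in all but *T* KO cells on day 3 (0.0125), and *Tpbpa* at no more than 0.0844. *Gata3* stood at 1.12 in dKO cells on day 3 and *Ascl2* at 5.31 in *T* KO cells on day 3.

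The 10 surface ectoderm markers summed to 11.3 to 101, with 1 to 7 of the 10 above FPKM 1, and most of this was the desmosome protein gene *Perp* (78.8 in dKO cells on day 3). On day 3, 4 of 7 examined were called higher in *Eomes* KO cells (*Trp63*, *Krt14*, *Krt15* and *Tfap2a*), all at FPKM 1.05 to 1.50, close to the minimum of 1. In dKO cells 3 of 5 were called higher (*Krt14*, *Krt15* and *Perp*), and none was lower in either line. The background was 7.39% higher and 9.01% lower in *Eomes* KO and 5.51% and 5.53% in dKO cells. *Krt14*, a keratin of basal epidermis, was at 1.13 in *Eomes* KO and 3.66 in dKO cells, and *Trp63*, a factor of stratified epithelia, at 1.28 and 0.985. On day 2 *Krt14* and *Grhl3* were lower in *Eomes* KO and *Grhl3* in dKO cells. *Krt5* stayed at or below 0.248. The 8 neural markers summed to 7.20 to 73.1 (1 to 3 above FPKM 1), the 12 feeder fibroblast markers to 3.57 to 24.3 (1 to 5) and the 13 endoderm markers to 0.541 to 6.96 (0 to 3). Fibroblast and trophoblast sums were highest in *Eomes* KO and dKO cells on day 3 (23.9 and 24.3 for fibroblast markers, 12.2 in WT). In *T* KO cells on day 3 the fibroblast sum was 11.8 and the trophoblast sum 125. Their part in the keratin and claudin values was not tested.

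*T*, a further T-box factor of the streak, was removed in *T* KO cells. None of the 10 genes was called on day 2 (background 5.7% higher and 9.93% lower) or on day 3 (background 2.12% and 3.92%). The log2 ratios ran from −0.40 for *Krt18* to 0.68 for *Cldn3* on day 2, and from −0.31 for *Krt19* to 0.67 for *Ocln* on day 3. *Ocln* stood at 14.2 in WT and 22.5 in *T* KO cells on day 3, and *Cldn3* at 11.9 and 18.2. *Krt18* stood at 853 and 1099 and *Krt8* at 624 and 549 on day 3. The ratio of *Krt8* to *Krt18* was therefore 0.499 in *T* KO cells, against 0.731 in WT cells of day 3 and a range of 0.466 to 0.884 over the 14 conditions.

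On day 3, 1 of the 10 genes was called higher and none lower in *Eomes* KO cells (background 7.39% and 9.01%), and likewise in dKO cells (background 5.51% and 5.53%). It was *Esrp2* in both, with 5.56 in *Eomes* KO beside 2.48 in WT (log2 1.17) and 5.34 in dKO beside 2.46 (log2 1.12). In *T* KO cells *Esrp2* stood at 3.35 against 2.39 (log2 0.49). On day 2 its values were 2.27 against 3.24 in *Eomes* KO, 4.55 against 3.37 in *T* KO and 2.73 against 3.23 in dKO cells. *Esrp2* had the lowest median level of the 10 genes.

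The median gene of its chromosome 8 was higher on day 3 by log2 0.20 in *Eomes* KO, 0.23 in *T* KO and 0.21 in dKO cells. On day 2, when *Esrp2* had negative ratios in *Eomes* KO and dKO cells, this median was also higher, by 0.17, 0.21 and 0.16. The part of this offset in the *Esrp2* values was not tested. After subtraction of the day 3 median the ratio of *Esrp2* was 0.97 in *Eomes* KO and 0.90 in dKO cells, just under the threshold, and with a pseudocount of 1 it was 0.92 and 0.87. *Nfatc3*, which overlaps *Esrp2* on the opposite strand, stood at 23.2 against 13.6 in *Eomes* KO cells (log2 0.77) and at 14.5 against 13.5 in dKO cells (log2 0.11) on day 3. *1810019D21Rik*, also on the opposite strand, had the sign of *Esrp2* on both days in these lines. It stood on day 2 at 0.179 against 0.832 in *Eomes* KO and 0.589 against 0.831 in dKO cells, and on day 3 at 0.724 against 0.104 and 1.20 against 0.103. The libraries were strand-specific, but the strand setting of the quantification is not given in the sources used here, so reads of the overlap may be shared. The part of the overlapping genes in the *Esrp2* values was not tested.

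*Esrp1* was not called in any comparison. Its 4 lowest values over the 14 conditions were those of dKO cells (14.3 and 17.0 on days 2 and 3) and *Eomes* KO cells (16.2 and 17.6). *Smad4* KO cells on day 2, also low in *Eomes*, had 22.1. The log2 ratios to WT were −0.48 and −0.45 in dKO and −0.31 and −0.41 in *Eomes* KO cells. The other conditions lay between 18.5 and 23.4, and 17.6 and 18.5 are neighbours in this order.

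No tight junction gene was called in *Eomes* KO or dKO cells. On day 3 in dKO cells *Cldn4* stood at 195 against 103 in WT (log2 0.92), *Cldn3* at 21.6 against 12.2 (log2 0.82), *Ocln* at 21.3 against 14.6 (log2 0.55) and *Cldn6* at 146 against 100.0 (log2 0.54). In *Eomes* KO cells *Cldn4* stood at 71.2 against 104 (log2 −0.54) and *Cldn7* at 21.0 against 37.8 (log2 −0.85). The ratio of *Cldn4* had opposite signs in the 2 lines, and that difference was not tested. On day 2 the 5 tight junction genes of *Eomes* KO and dKO cells had log2 ratios between −0.41 and 0.43. Over all 14 conditions 6 of the 10 genes were highest in dKO cells on day 3, namely *Cldn3*, *Cldn4*, *Cldn6*, *Cldn7*, *Krt8* and *Krt18*.

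**Figure D4:**
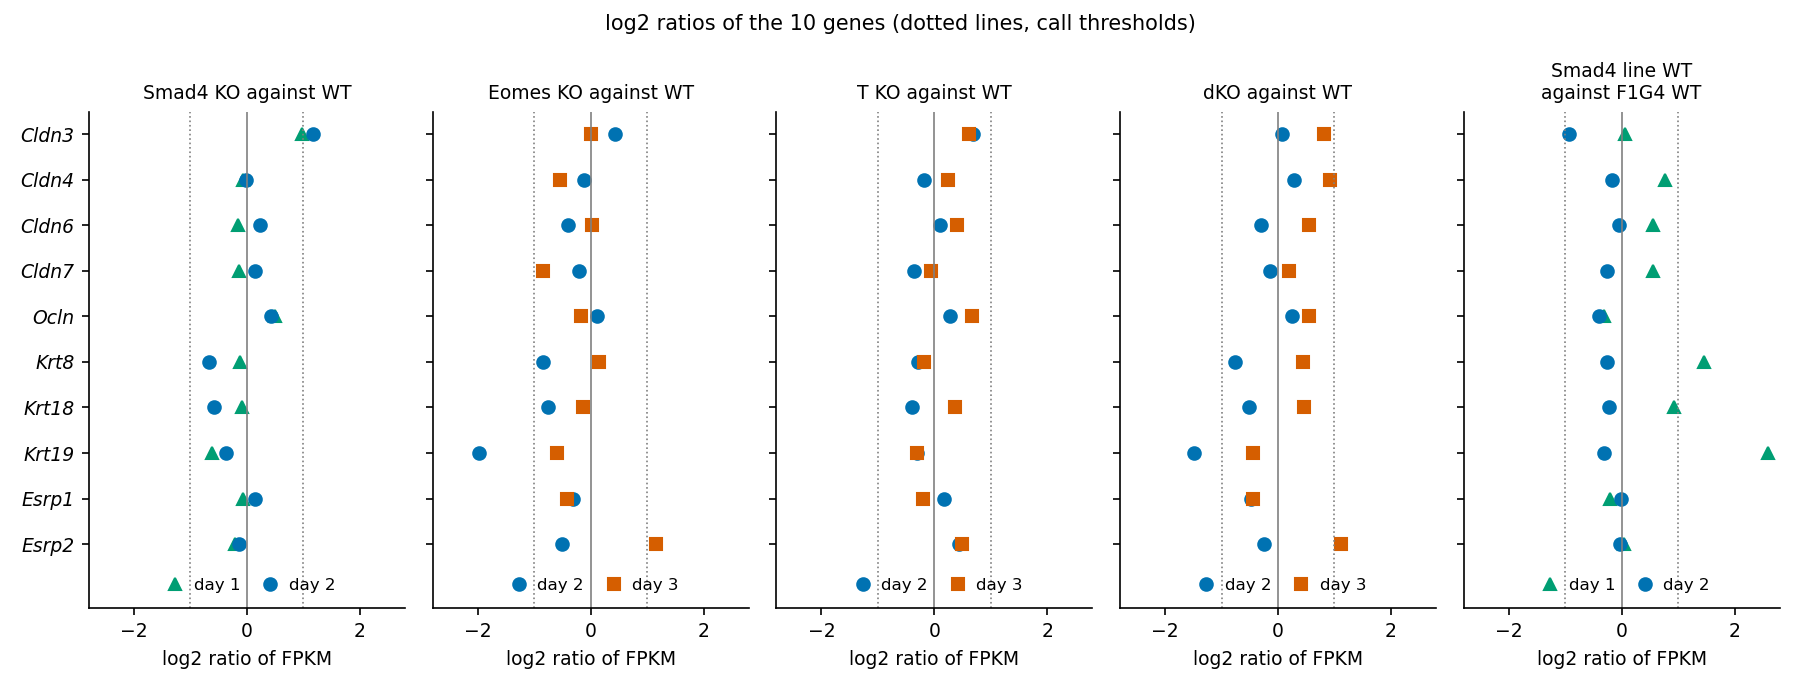
log2 ratios of FPKM for the 10 genes (rows) in *Smad4* KO, *Eomes* KO, *T* KO and dKO cells relative to WT, and in WT cells of the *Smad4* line relative to F1G4 WT cells (right), with 1 point per day and dotted lines at the thresholds of −1 and 1. *Krt19* on day 2 (−1.98 and −1.49), *Esrp2* on day 3 (1.17 and 1.12) and *Cldn3* on day 2 in *Smad4* KO cells (1.17) lie beyond them, as do *Krt19* (2.59) and *Krt8* (1.45) between the WT lines on day 1.

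Profiles over the 14 conditions were compared by Pearson's r of log2(FPKM + 0.1), among 9284 genes that reached FPKM 5. These values are descriptive, since conditions share lines and days. *Krt8* and *Krt18* were most like each other (r = 0.989), and *Krt8* and *Krt19* followed each other less closely (r = 0.968). *Morc4* (r = 0.973) and *Slc35g2* (r = 0.969) were among the 3 genes most like *Krt19*. *Serpinh1*, a collagen chaperone, was among the closest to *Krt8* (r = 0.986) and *Krt18* (r = 0.975).

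For the tight junction genes the most similar profiles were those of *Tpm4* for *Cldn3* (r = 0.953), *Wsb1* for *Cldn4* (r = 0.960), *Fam46b* for *Cldn6* (r = 0.951), *Ms4a4d* for *Cldn7* (r = 0.956) and *Vps36* for *Ocln* (r = 0.942). *Cldn7* and *Ocln* had r = 0.889, *Cldn3* and *Cldn4* r = 0.781, and *Cldn4* and *Ocln* r = 0.301. *Esrp1* was most like *Ccdc6* (r = 0.889) and *Esrp2* most like *Thap4* (r = 0.862). The *Esrp* genes had r = 0.022 with each other.

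Other junction genes were read from lists chosen from general knowledge. Of 13 examined among 24 further tight junction genes, 4 were called higher and 3 lower on day 3 relative to ES cells, a comparison in which 18.5% of all examined genes were higher and 12.6% lower. The same background applies to the other lists at this step. *Marveld2* (tricellulin, a relative of occludin) rose from 2.06 to 11.6 and *Lsr*, which builds tricellular contacts, from 14.3 to 32.1, whereas the adhesion gene *Jam2* fell from 11.6 to 0.0894. Of 13 examined among 21 other keratin and desmosome genes, 5 were higher and 2 lower. *Krt7* rose from 0.882 to 46.4 and the desmosomal cadherin *Dsc2* from 0.351 to 17.1. Of 22 adherens junction and apical polarity genes examined, 7 were higher and 1 lower. *Crb3*, an apical polarity gene, rose from 7.86 to 28.5. *Cdh1*, E-cadherin, named after its values were seen, stood at 139 in ES cells and 138 on day 3.

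Of 15 examined on day 3 relative to ES cells among 22 epithelial transcription factors and RNA-binding proteins, 1 was called higher and 8 lower. *Klf4* fell from 14.2 to 0.859, *Klf5* from 42.0 to 10.2 and *Rbm47*, an RNA-binding protein, from 9.02 to 2.42. Of 13 examined among 20 mesenchymal genes and repressors, 7 were called higher and none lower. *Vim* (vimentin) rose from 46.3 to 265, *Acta2* from 0.905 to 10.7 and *Mmp2*, a matrix protease, from 1.03 to 5.86. *Vim* stood at 32.8 on day 1 and 41.2 on day 2, so its rise fell between days 2 and 3, in the interval in which *Cldn3*, *Cldn4* and the keratins also rose. Of the repressors in the list, named after their values were seen, *Zeb2* rose from 0.292 to 2.39 and *Twist1* from 0.836 to 4.44. *Snai1* (0.0787 to 0.587) and *Snai2* (0.131 to 0.883) also rose but remained below FPKM 1 on day 3, and *Zeb1* fell from 1.39 to 0.705.

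The mesenchymal list was also read in the KO lines on day 3. In *T* KO cells 6 of 12 examined were lower and none higher, among them *Vim* (51.4 against 267), *Fn1* (4.26 against 18.2) and *Cdh2* (0.182 against 5.61), while no member of the 10 was called (2.12% of all examined genes were higher and 3.92% lower). In *Eomes* KO cells 2 were higher and 4 lower of 13 (7.39% and 9.01% of all), and in dKO cells 1 was higher and 4 lower of 12 (5.51% and 5.53%), with *Vim* at 73.0 and 81.2. Among other keratins *Krt7* rose to 113 in dKO cells on day 3 (48.2 in WT). *Tjp3*, a scaffold protein of tight junctions, was lower in both lines on day 2 (1.97 against 5.65 and 2.25 against 5.63).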

How the data were processed

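The 10 genes and the gene lists were chosen with earlier results of these data known, and none is independent evidence. RNA of 18 samples was analysed. The authors made strand-specific ScriptSeq v2 libraries from total RNA, sequenced them paired-end, trimmed reads with cutadapt 2.9, aligned them to mm10 with Hisat2 2.1.0 and computed the deposited FPKM values with Cuffdiff 2.2.1 on refSeq genes. There were 9 tables with 20 columns, each pooling its condition. Depth per sample is unknown.

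Ratios were taken within a table, without a pseudocount. WT lines were compared across tables after scaling to a median ratio of 1, and KO columns on days 2 and 3 were scaled by the factor (0.989 to 1.04) that relates their WT column to the time course. Named genes are the 10 members, the targeted genes, at most 3 called genes of each list and comparison (FPKM of 5 or more in one of the groups), and genes among the 3 most similar profiles per member; 1 gene these rules name is not reported here. Genes outside this rule (*Prl3d1*, *Elf5*, *Tpbpa*, *Krt5*, *Trp63*, *Krt14*, *Plac1*, *Cdx2* and other markers, *Nfatc3*, *1810019D21Rik* and levels of uncalled genes) were chosen after their values were seen. Positions are from GENCODE M21 on GRCm38, and upstream sequences from RefSeq. Steps were tested on simulated data. Alternatives were another FPKM minimum (none or 5), pseudocounts of 0.1 and 1, rescaling to TPM, a median ratio of 1, and, chosen after seeing the data, subtraction of the median of genes of like GC content or of the chromosome. Python 3.11.15, numpy 2.4.6, pandas 2.3.3 and matplotlib 3.10.9 were used.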

Additional observations from a re-analysis of the deposited data

Results flagged for a closer look

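Log2 ratios to WT of opposite sign on days 2 and 3 that differed by more than 1 were found for 2 of the 10 genes, and the difference between the days was not tested. *Esrp2* stood at −0.51 on day 2 and 1.17 on day 3 in *Eomes* KO cells, and at −0.24 and 1.12 in dKO cells. *Krt8* stood at −0.76 on day 2 and 0.44 on day 3 in dKO cells. No group held enough separate values for a search for outlying samples.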

How the results depend on the processing

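No log2 ratio of the 10 genes that had passed the threshold changed sign in any of the alternatives. Of 1120 recomputed ratios, 1107 kept their side of the threshold, 6 fell inside it and 7 passed it, and 21 ratios that were never called changed sign (the largest was 0.29 in size). Rescaled to TPM, the number of members called became 1 in *Smad4* KO cells on day 1 (*Cldn3*, 1.05). It became 2 in *Eomes* KO and 2 in dKO cells on day 2 (*Krt8*, −1.06 and −1.17). Of all examined genes 574 of 12447 were then called higher in the *Smad4* KO comparison. Called lower were 1053 of 12357 in the *Eomes* KO and 1869 of 12259 in the dKO comparison. With a pseudocount of 1 the number of members called became 0 in *Smad4* KO cells on day 2 (*Cldn3*, 0.94). It also became 0 in *Eomes* KO and dKO cells on day 3 (*Esrp2*, 0.92 and 0.87). Of all examined genes 127 of 10999, 332 of 11629 and 302 of 11473 were then called higher, in the same order. Less the chromosome median the number of members called became 0 in *Eomes* KO and dKO cells on day 3 (*Esrp2*, 0.97 and 0.90). *Cldn6* on day 1 relative to ES cells passed the threshold when rescaled to TPM (1.06), at a median ratio of 1 (1.03), less the GC median (1.02) and less the chromosome median (1.06). *Cldn4* on day 3 relative to ES cells lay at 0.99 less the GC median. In these alternatives the cause was not tested. No paired analysis was possible because each column pools its condition, and for the same reason no replicate could be left out. Calls near the threshold have no error estimate, since depth and replicate spread are unknown.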
